A study of Mus musculus with 4 samples.

Results

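The enzymes and cofactors that place DNA methylation and the core subunits of Polycomb repressive complex 2 (PRC2) were examined in livers whose hepatocytes had lost Cnot3. The set was 10 genes: Uhrf1, Dnmt1, Dnmt3a, Dnmt3b, Hells, Ezh1, Ezh2, Eed, Suz12 and Suv39h1, the last outside both groups. A probe set, a group of short probes on the array that reports 1 transcript region, was taken where it named one of these genes and no other. Of the 10 genes, 9 had such probe sets, out of 18193 genes on the array, and Suv39h1 was not analysed here. The 9 genes had 28 probe sets, of which 25 passed the filter on low values.

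RNA was taken from whole livers of mice on a C57BL/6 background at 4 weeks of age, with 2 livers labelled wild type (Control) and 2 labelled Cnot3 knockout (Cnot3KO) and 1 array per liver. In Cnot3KO mice the floxed Cnot3 gene, which encodes a subunit of the Cnot complex that shortens mRNA poly(A) tails, was removed by Cre recombinase under the albumin promoter. That promoter is active in hepatocytes and their precursors. In reporter mice the paper took the liver cells without recombination to be non-hepatic, such as cholangiocytes. The study used several genotypes as controls, with floxed alleles or with Cre alone among them, and those of the 2 Control arrays, like the sex of the mice, are not given in the sources used here.

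All values below are log2 intensities made by Robust Multi-array Average (RMA), or differences between them written as Cnot3KO minus Control. Standard errors (SE) of differences follow the sign ±, with n = 2 arrays per group. Every adjusted p is from limma, adjusted by the Benjamini-Hochberg method over all 38405 kept probe sets, and a probe set or gene was called at an adjusted p under 0.05. A gene was read from its kept probe set with the highest mean. The labels number the mice but say nothing of litters, so the p-values measure the spread between these samples. Signals of different probe sets are not on a common scale, so only differences between arrays are compared. Cnot3 itself read 5.99 and 6.04 in Control against 5.15 and 5.30 in Cnot3KO, a fall of -0.79 ± 0.16 (adjusted p = 0.0372). The lower signal was on both Cnot3KO arrays, and the call was lost whenever 1 array was left out, with adjusted p from 0.0885 to 0.211. A second kept Cnot3 probe set read 4.71 and 4.51 in Control against 4.35 and 4.06 in Cnot3KO. It differed by -0.40 ± 0.19 and was not called (adjusted p = 0.218). Whether either probe set lies in the deleted part of the gene is not known here.

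DNA methylation at CpG dinucleotides is copied after replication by Dnmt1, which is brought to newly made DNA by Uhrf1 and acts with the remodeller Hells, while Dnmt3a and Dnmt3b methylate unmodified sites. PRC2 methylates lysine 27 of histone H3 through either of the catalytic subunits Ezh2 and Ezh1, held together by Eed and Suz12, and so keeps developmental genes silent. In liver, as in other tissues, the maintenance enzymes and Ezh2 are typical of dividing cells, and Ezh1 is the form that persists in resting cells.

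E2F factors drive genes of DNA replication, so promoter windows of 300 bases (250 before to 50 after the transcription start, from RefSeq on GRCm38.p6) were searched for TTTCGCGC, TTTGGCGC, TTTCCCGC and TTTGCCGC on both strands. One of these words was in 744 of all 32851 windows (2.26%) and in 6 of the 16 windows of the 10 genes. The genes with a match were Uhrf1, Dnmt1, Hells, Ezh2, Suz12 and Suv39h1, and none of the searched words lay in the windows of Dnmt3a, Dnmt3b, Ezh1 and Eed. The windows below belong to the 4 genes that were called in Cnot3KO livers and to Suz12, which has a match and was not called. Each runs 5′ to 3′ on the strand of its gene, and capitals mark the searched words.
Uhrf1, chr17:56304063-56304362, plus strand: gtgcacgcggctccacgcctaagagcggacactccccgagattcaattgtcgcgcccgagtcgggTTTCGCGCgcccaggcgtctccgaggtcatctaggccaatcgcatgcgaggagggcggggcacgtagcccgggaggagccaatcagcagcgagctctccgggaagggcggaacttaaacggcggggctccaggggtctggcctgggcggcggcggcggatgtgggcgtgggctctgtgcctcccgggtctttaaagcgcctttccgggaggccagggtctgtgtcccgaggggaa
Dnmt1, chr9:20952574-20952873, minus strand: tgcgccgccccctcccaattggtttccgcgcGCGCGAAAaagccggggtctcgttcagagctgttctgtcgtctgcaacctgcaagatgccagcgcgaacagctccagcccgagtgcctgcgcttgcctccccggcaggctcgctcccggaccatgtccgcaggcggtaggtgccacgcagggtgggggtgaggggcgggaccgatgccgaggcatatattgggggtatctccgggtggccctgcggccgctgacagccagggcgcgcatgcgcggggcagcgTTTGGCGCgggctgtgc
Hells, chr19:38930740-38931039, plus strand: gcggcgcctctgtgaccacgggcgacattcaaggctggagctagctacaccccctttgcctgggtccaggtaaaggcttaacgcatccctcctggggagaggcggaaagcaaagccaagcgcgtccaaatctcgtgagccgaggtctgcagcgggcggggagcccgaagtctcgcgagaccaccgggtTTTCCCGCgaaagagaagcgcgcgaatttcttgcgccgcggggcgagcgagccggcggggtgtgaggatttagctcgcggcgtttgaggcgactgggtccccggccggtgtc
Ezh2, chr6:47594981-47595280, minus strand: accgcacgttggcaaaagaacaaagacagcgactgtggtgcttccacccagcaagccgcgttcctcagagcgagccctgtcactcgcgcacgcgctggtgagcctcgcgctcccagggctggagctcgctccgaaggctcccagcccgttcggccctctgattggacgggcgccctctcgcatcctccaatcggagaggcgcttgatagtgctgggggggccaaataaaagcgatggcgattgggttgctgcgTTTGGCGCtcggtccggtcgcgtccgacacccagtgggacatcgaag
Suz12, chr11:79992856-79993155, plus strand: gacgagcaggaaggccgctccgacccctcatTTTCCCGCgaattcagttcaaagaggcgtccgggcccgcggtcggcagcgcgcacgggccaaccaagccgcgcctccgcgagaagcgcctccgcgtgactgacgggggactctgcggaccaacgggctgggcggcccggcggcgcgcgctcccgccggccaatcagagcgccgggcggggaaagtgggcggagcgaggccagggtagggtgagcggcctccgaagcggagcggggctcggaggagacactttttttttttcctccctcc

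Counted from 1 at the transcription start to the first base of the match, the word lay at -185 in Uhrf1, -62 in Hells, 4 in Ezh2 and -219 in Suz12. Dnmt1 had matches at -219 and 34. Uhrf1 has another annotated start and Dnmt1 others, whose windows held no match. The searched words overlapped none of the CCAAT or TTTGAA words, which mark promoters of many cell cycle genes and were looked for in the same windows. CCAAT, on either strand, stood in 37.4% of all windows and in those of Uhrf1, Dnmt1, Ezh2, Eed and Suz12 (and Suv39h1). TTTGAA stood in 17.9% of all windows and in those of Dnmt1, Dnmt3b, Eed and Suz12. The printed windows held 31 to 41 CpG dinucleotides, against a median of 7 over all windows. Each of the words searched for E2F contains a CpG, so the share over all windows is not a like background. Windows of similar CpG content were not compared. These matches are a description of letters and were not tested as binding sites.

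Of the 9 genes, 4 were called higher in Cnot3KO livers (Uhrf1, Dnmt1, Hells and Ezh2), 0 were called lower and 5 were not called. At an unadjusted p under 0.05 limma gave 7 genes higher and 0 lower. By probe set that threshold gave 12 of 25 higher and 1 lower, against 6346 higher and 5550 lower of all 38405 kept probe sets. After adjustment the shares were as follows. Over all 16758 genes with a kept probe set, 12.2% were called higher and 4.64% lower. The median difference was 1.12 over the 9 genes and 0.0020 over all genes. By probe set, 8 of 25 were called higher and 0 lower, against 8.48% and 4.78% of all kept probe sets. The 2 groups of arrays did not overlap in 7 of the 9 genes, against 65.1% of all genes, and in 14 of the 25 probe sets, against 62.8% of all, so lack of overlap alone does not set these genes apart. Because the tissue was whole liver, more cells of a type and more RNA per cell cannot be told apart.

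**Figure D1:**
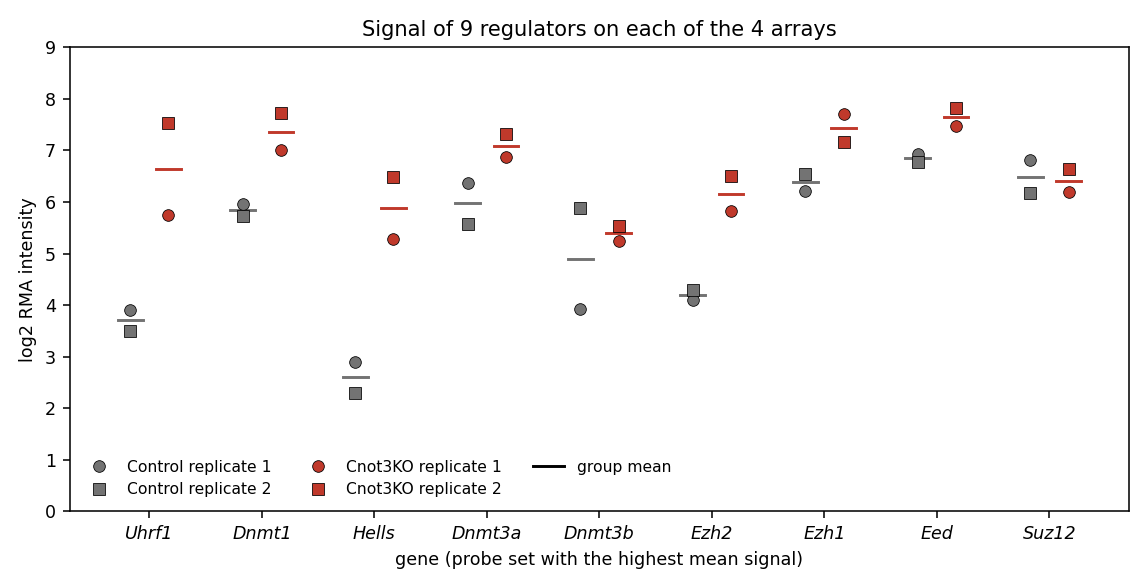
log2 RMA intensity (vertical axis) of each of the 9 genes on each array, with grey points for Control, red points for Cnot3KO and bars for group means. Both Cnot3KO points lie above both Control points in Uhrf1, Dnmt1, Hells, Dnmt3a, Ezh2, Ezh1 and Eed, and the groups overlap in Dnmt3b and Suz12.

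Among the genes of methylation maintenance, all 3 were called higher. Uhrf1, whose protein recognises DNA methylated on 1 strand only, read 3.90 and 3.50 in Control against 5.74 and 7.52 in Cnot3KO. Both Cnot3KO arrays were higher, with the second well above the first. The difference was 2.93 ± 0.58, a 7.63-fold higher mean (adjusted p = 0.0326). A larger difference was found in 0.985% of all genes. The other Uhrf1 probe set read 2.57 and 2.67 in Control against 3.43 and 5.77 in Cnot3KO, a difference of 1.98 ± 0.73 that was not called (adjusted p = 0.139).

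The Uhrf1 call depended on the arrays used. Uhrf1 was no longer called without Control replicate 1 (3.13, adjusted p = 0.110) and without Control replicate 2 (2.73, adjusted p = 0.118). Averaging both probe sets in place of the brighter gave 2.45 (adjusted p = 0.0574), and a block for the replicate number gave an adjusted p of 0.0533, and neither was called. Among the alternatives the second probe set was called only without Cnot3KO replicate 1 (3.15, adjusted p = 0.00684).

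Dnmt1, the maintenance methyltransferase, was called on each of its 3 probe sets. The one with the highest mean read 5.96 and 5.73 in Control against 7.01 and 7.72 in Cnot3KO, a difference of 1.52 ± 0.28, or 2.87-fold (adjusted p = 0.0266). The second, at 4.49 and 4.53 in Control against 6.06 and 6.55 in Cnot3KO, rose by 1.80 ± 0.22 (adjusted p = 0.0108). The third, at 3.19 and 3.14 against 4.61 and 5.09, rose by 1.69 ± 0.21 (adjusted p = 0.0120), so the 3 probe sets moved by similar amounts. These other probe sets carry the suffix of designs whose probes may match further transcripts. Dnmt1 was no longer called without Control replicate 1 (1.64, adjusted p = 0.0880), Control replicate 2 (1.40, adjusted p = 0.0935) or Cnot3KO replicate 2 (1.17, adjusted p = 0.0672).

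Hells, an SNF2-family remodeller that opens compact chromatin to methylation, had the largest difference of the 9 genes. Its probe set with the highest mean read 2.90 and 2.30 in Control against 5.29 and 6.49 in Cnot3KO. The difference was 3.29 ± 0.44, or 9.79-fold (adjusted p = 0.0132), and 0.656% of all genes had a larger one. The 2 other Hells probe sets did not show this. One read 3.51 and 3.26 in Control against 3.12 and 4.02 in Cnot3KO (0.18 ± 0.32, adjusted p = 0.736), and one 1.83 and 1.67 against 1.52 and 1.41 (-0.28 ± 0.17, adjusted p = 0.309). Which part of the transcript each probe set reads is not known here. Hells was no longer called without Control replicate 1 (3.59, adjusted p = 0.0557), without Control replicate 2 (2.99, adjusted p = 0.0566) and with the mean of the 3 probe sets (1.06, adjusted p = 0.0507).

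The de novo methyltransferases were not called as genes. Dnmt3a read 6.37 and 5.58 in Control against 6.87 and 7.31 in Cnot3KO, a difference of 1.12 ± 0.32 (adjusted p = 0.0797), so the groups did not overlap but the 2 Control arrays lay 0.80 apart. A second Dnmt3a probe set was called, at 4.55 and 4.64 in Control against 6.10 and 6.16 in Cnot3KO (1.54 ± 0.16, adjusted p = 0.00810). Its replicates lay 0.081 apart in Control and 0.066 apart in Cnot3KO. The 3 remaining ones differed by -0.47, -0.029 and 0.23, overlapped between groups and were not called, and the mean over all 5 probe sets differed by 0.48 (adjusted p = 0.164).

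Dnmt3b, the methyltransferase most active in early embryos, was set apart by its Control arrays. It read 3.92 and 5.88 in Control against 5.25 and 5.54 in Cnot3KO, so both Cnot3KO values lay between the Control values. The difference was 0.50 ± 0.62 (adjusted p = 0.624), with a 95% confidence interval from -1.07 to 2.07. The other Dnmt3b probe set showed the same split, at 3.25 and 4.98 in Control against 4.64 and 4.80 in Cnot3KO (0.61 ± 0.55, adjusted p = 0.494). The direction therefore rested on 1 array: the difference was -0.48 without Control replicate 1, and 1.48 with a call (adjusted p = 0.0425) without Control replicate 2.

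Ezh2 was the only one of the 4 PRC2 genes called as a gene. Ezh2, the catalytic subunit of dividing cells, read 4.10 and 4.30 in Control against 5.82 and 6.50 in Cnot3KO on its single probe set. The difference was 1.96 ± 0.26, or 3.90-fold (adjusted p = 0.0135), and the replicates of each group lay closer together than in Uhrf1 or Hells. Ezh2 was not called without Control replicate 1 (1.86, adjusted p = 0.0688), and its call held without each of the other arrays.

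Ezh1, the catalytic subunit of resting cells, read 6.21 and 6.55 in Control against 7.70 and 7.16 in Cnot3KO. Both Cnot3KO arrays were higher, here with the first above the second, but the difference of 1.05 ± 0.25 was not called (adjusted p = 0.0531). Its second kept probe set read 2.11 and 1.99 in Control against 2.97 and 2.94 in Cnot3KO and was called (0.90 ± 0.16, adjusted p = 0.0253), a call lost whenever 1 array was left out. The other 2 Ezh1 probe sets failed the filter, with all values from 0.89 to 1.68.

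Eed, the subunit that reads trimethylated lysine 27, read 6.94 and 6.78 in Control against 7.48 and 7.82 in Cnot3KO. The groups did not overlap, and the difference of 0.79 ± 0.19 just missed the threshold (adjusted p = 0.0552). Ezh1 and Eed were both called with centring on ribosomal protein genes (1.10, adjusted p = 0.0432, and 0.84, adjusted p = 0.0413). They were also called with a filter at the 50th percentile (adjusted p = 0.0458 and 0.0485) and with the mean of their kept probe sets (0.98, adjusted p = 0.0201, and 0.79, adjusted p = 0.0404). The other Eed probe set failed the filter, with values from 1.15 to 1.41.

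Suz12, which stabilises PRC2, had 6 kept probe sets and none was called. The one with the highest mean read 6.81 and 6.17 in Control against 6.20 and 6.64 in Cnot3KO, with overlap between the groups. The difference was -0.071 ± 0.28 (adjusted p = 0.887), with a 95% confidence interval from -0.79 to 0.64. The other 5 ranged from -0.59 to 0.024, and the lowest of them, whose groups did not overlap, passed the threshold in limma only before adjustment (adjusted p = 0.147). Suz12 was thus the only gene of the set whose difference was negative, and the interval leaves room for a change of either sign.

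**Figure D2:**
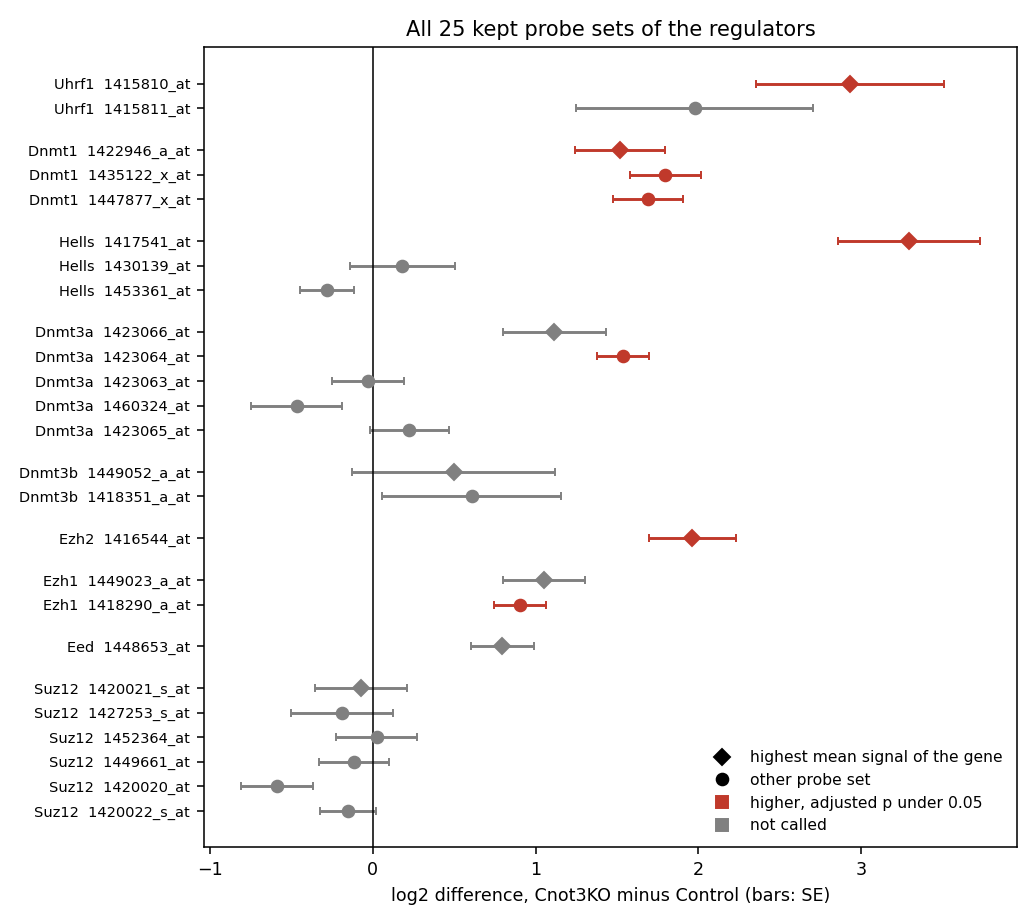
log2 difference (Cnot3KO minus Control, horizontal axis) of the 25 kept probe sets with bars for the SE. Red marks the 8 called higher; diamonds mark the probe set with the highest mean of each gene. Dnmt1 probe sets lie together near 1.5 to 1.8, while those of Hells and Dnmt3a spread from below 0 to above 1.

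Whether a pair of related genes moved by unequal amounts was asked in 4 pairs, using the difference between the 2 genes on each array. Ezh2 changed by 0.91 more than Ezh1, and on both Cnot3KO arrays the difference between them lay above that on both Control arrays. The exact two-sided permutation test gave p = 0.333, the smallest that 2 against 2 arrays allow. Uhrf1 changed by 1.41 more than Dnmt1, also without overlap (exact permutation p = 0.333). Dnmt1 changed by 0.41 more than Dnmt3a (exact permutation p = 0.667), and Dnmt3b by -0.62 relative to Dnmt3a (exact permutation p = 1), with overlap in both. Adjusted over the 4 pairs these p-values were 0.667 for the first and second pair, 0.889 and 1. This permutation test could not reach 0.05 in any pair. Each gene was read from its probe set with the highest mean, and the sizes depend on that choice. The other probe sets differed by 1.98 in Uhrf1, by 1.80 and 1.69 in Dnmt1 and from -0.47 to 1.54 in Dnmt3a. The pairs were not tested with these.

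The 2 Cnot3KO arrays were not alike. Cnot3KO replicate 2 lay above replicate 1 by 1.78 in Uhrf1, 1.20 in Hells, 0.71 in Dnmt1 and 0.67 in Ezh2. Among the genes not called it was also above by 0.44 in Dnmt3a, 0.44 in Suz12, 0.34 in Eed and 0.30 in Dnmt3b. Only Ezh1 was lower there, by -0.55. Of 13 measured genes that mark dividing cells, 12 were called higher and 0 lower, with a median difference of 2.37. Their summed linear signal was 275 and 157 in Control against 868 and 1347 in Cnot3KO, so it too was highest on Cnot3KO replicate 2. In Control the sum was lower on replicate 2, where Uhrf1, Hells and Dnmt1 were lower and Ezh2 was higher. Of 32 measured genes of DNA replication and other E2F targets, 15 were called higher and 0 lower (median 1.46), and their sum was 1480 and 1271 in Control against 2850 and 5391 in Cnot3KO. Without 1 array the count of these replication genes ranged from 5 to 20. The part of either list in the values of Uhrf1, Hells, Dnmt1 and Ezh2 was not tested.

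**Figure D3:**
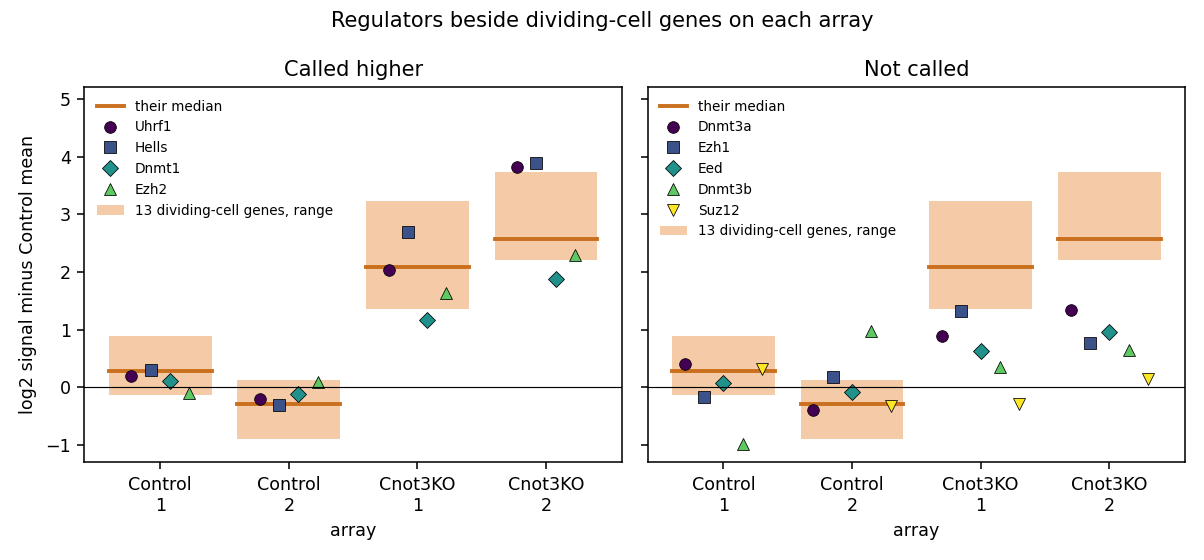
log2 signal of each gene minus its Control mean (vertical axis) on the 4 arrays, with bars for the range and a line for the median of 13 dividing-cell genes. Uhrf1 and Hells lie above the bar on Cnot3KO replicate 2. Dnmt1, Dnmt3a, Ezh1, Eed, Dnmt3b and Suz12 lie below the bars on both Cnot3KO arrays, Ezh1 only just on replicate 1.

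The genes nearest in pattern were found by the root mean square distance of the 4 log2 values, each after subtraction of the gene's Control mean, over 16757 other genes. Nearest to Uhrf1 were Pbk (0.259), Tuba8 (0.307) and Hells (0.335). Nearest to Ezh2 were Hmgb2 (0.0897), Aurkb (0.0908) and Blm (0.102), an abundant chromatin protein, a mitotic kinase and a DNA helicase. Nearest to Ezh1 were Fzd6 (0.0287), Oscp1 (0.0290) and Esyt1 (0.0378). The lists of Uhrf1, Ezh2 and Ezh1 shared no gene, and 4 arrays are few points for such a distance.

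Markers of other cell types also differed between the groups, and their part in the values above was not tested. Of hepatocyte markers, 0 of 11 measured were called higher and 2 lower, and their summed signal was 79657 and 78585 in Control against 73156 and 75561 in Cnot3KO. Of cholangiocyte markers 6 of 8 were called higher (65.3 and 56.0 against 1161 and 832 in sum), of stellate cell markers 7 of 10 (2270 and 1842 against 5972 and 4473) and of macrophage markers 5 of 12 (1713 and 1556 against 3222 and 3437). The cholangiocyte and stellate sums, and the endothelial sum below, were higher on Cnot3KO replicate 1 than on replicate 2. The hepatocyte and macrophage sums, and the lymphocyte and erythroid sums below, were higher on replicate 2, as were all analysed genes of the set except Ezh1. Of lymphocyte markers 0 of 11 were called (before adjustment, at p under 0.05, limma gave 1 higher and 1 lower), with sums of 115.4 and 109.9 against 102.7 and 120.2. Of endothelial markers 0 of 10 were called (0 before adjustment), with sums of 1016 and 1218 against 1221 and 1086. Of erythroid markers 0 of 10 were called higher and 3 lower, with sums of 1016 and 1064 against 676 and 1281. The labelled tissue carried its defining markers, with Alb, which encodes albumin, at 13.84 and 13.73 in Control against 13.74 and 13.79 in Cnot3KO.

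Among 21 further measured genes of DNA methylation (readers, erasers and cofactors), 4 were called higher (19%) and 1 lower (4.76%), with a median difference of 0.27. Over all genes 12.2% were called higher and 4.64% lower, and the difference between the shares was not tested. Cdca7l, a paralogue of the Hells partner Cdca7, read 3.24 and 3.03 in Control against 4.66 and 4.91 in Cnot3KO (1.65 ± 0.18, adjusted p = 0.00932). Dmap1, which binds Dnmt1, rose by 1.39 ± 0.17 (adjusted p = 0.0116), and Mbd4, a reader that also repairs deaminated CpG sites, rose by 1.09 ± 0.16 (adjusted p = 0.0158). Ahcy, which clears the S-adenosylhomocysteine that inhibits methyltransferases, read 11.89 and 11.90 in Control against 10.54 and 11.16 in Cnot3KO (-1.05 ± 0.24, adjusted p = 0.0492). Of these named genes only Cdca7l was called whichever array was left out. The Dmap1 call was lost without Cnot3KO replicate 1, and those of Mbd4 and Ahcy without 3 of the 4 arrays each. Mbd1 was not called as a gene (-0.72 ± 0.21, adjusted p = 0.0822), but 3 of its 5 kept probe sets were called lower.

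Calls among the other genes of PRC2 and PRC1 were mostly higher, where 12.2% of all genes were called higher and 4.64% lower. The difference between the shares was not tested. Of 11 genes listed as accessory subunits of PRC2, 1 was called higher (9.09%) and 0 lower, with a median difference of 0.0040. It was Mtf2, which brings PRC2 to CpG islands (0.73 ± 0.16, adjusted p = 0.0432). Of 22 measured genes of PRC1, the complex that ubiquitinates histone H2A, 5 were called higher (22.7%) and 1 lower (4.55%). Their median difference was 0.55. Scmh1 rose by 1.82 ± 0.35 (adjusted p = 0.0300), Pcgf1 by 1.62 ± 0.20 (adjusted p = 0.0113) and Auts2 by 1.43 ± 0.30 (adjusted p = 0.0398). Yaf2, a subunit of variant PRC1, fell by -1.13 ± 0.24 (adjusted p = 0.0409). Without Control replicate 1 Pcgf1 was not called (adjusted p = 0.0551). The other 3 PRC1 genes each lost their call without 3 of the arrays and Mtf2 whichever array was left out, and the count of PRC1 genes called higher then ranged from 0 to 4. With the mean of all probe sets of a gene, Mtf2 was at 0.26 (adjusted p = 0.276), Scmh1 at 1.01 (adjusted p = 0.0781) and Auts2 at 0.83 (adjusted p = 0.0796).

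Of 8 genes that remove methyl groups from H3K27 or ubiquitin from H2A, 0 were called, and 0 passed at an unadjusted p under 0.05 in limma, with a median of 0.055. The largest difference there was that of Asxl1, a cofactor of the H2A deubiquitinase (0.55 ± 0.44, adjusted p = 0.436). These values are of the probe set with the highest mean of each gene. Of the 3 kept Asxl1 probe sets 1 was called higher, and the mean over them differed by 0.82 (adjusted p = 0.0795). Of 20 genes of H3K9 and H4K20 methylation and heterochromatin protein 1, 1 was called higher and 1 lower, with a median of 0.089. These were the paired H4K20 methyltransferases Kmt5c (0.93 ± 0.20, adjusted p = 0.0422) and Kmt5b (-0.73 ± 0.17, adjusted p = 0.0472), and both calls were lost whichever array was left out. Over the mean of its 5 probe sets Kmt5b was at -0.089 (adjusted p = 0.727).

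Genes that these systems are known to silence were mostly not called. Several of their probe sets lay near the low end of the arrays, whose 20th percentile was 1.54 to 1.69. Dazl had means of 1.74 in Control and 1.39 in Cnot3KO, Syce1 of 1.66 and 1.46, and Hoxa10 of 1.60 and 1.36. At such values the lack of a call does not show that a gene stayed silent. Of 13 measured germline genes under DNA methylation, 1 was called higher and 0 lower, with a median of -0.22. It was Rhox5, at 2.45 and 2.63 in Control against 4.01 and 3.60 in Cnot3KO (1.27 ± 0.21, adjusted p = 0.0206), a call lost without 3 of the 4 arrays (adjusted p up to 0.0933). Of 29 measured Polycomb target genes, 3 were called higher and 1 lower, with a median of -0.24. Sox9, also one of the cholangiocyte markers, read 2.63 and 3.32 in Control against 5.80 and 5.74 in Cnot3KO (2.79 ± 0.26, adjusted p = 0.00701) and kept its call without each array. Gata6 (1.26 ± 0.18, adjusted p = 0.0153) and Wnt5a (1.07 ± 0.19, adjusted p = 0.0258) were called higher and Hoxd13 lower (-0.71 ± 0.17, adjusted p = 0.0494). Wnt5a read 1.36 and 1.61 in Control, around the 20th percentile, against 2.68 and 2.42 in Cnot3KO. Its place among the kept probe sets may therefore rest on the Cnot3KO arrays, where it was high. The Gata6 call was lost without 3 of the 4 arrays, and those of Wnt5a and Hoxd13 whichever array was left out. With the mean of all probe sets of a gene, Gata6 was at 0.60 and just missed the threshold, Wnt5a at 0.30 (adjusted p = 0.219) and Hoxd13 at -0.32 (adjusted p = 0.184). These shares, 7.69% and 10.3% called higher, are below the 12.2% of all genes, and the difference between the shares was not tested. Signal level was not matched between these lists and all genes.

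**Figure D4:**
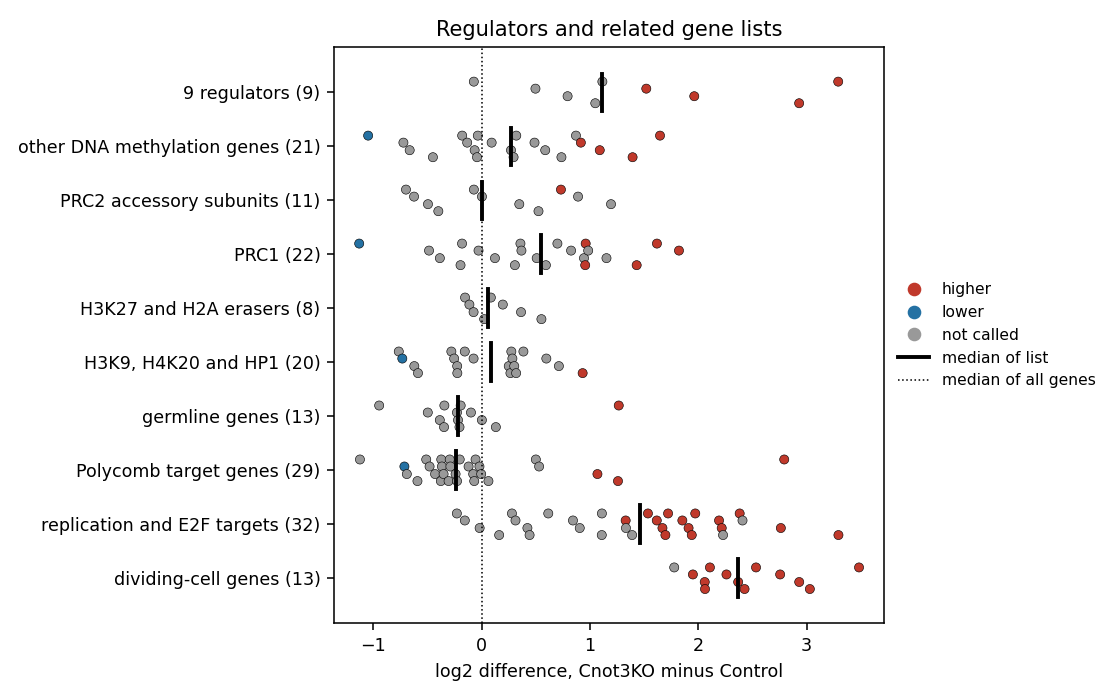
log2 difference (Cnot3KO minus Control, horizontal axis) of each measured gene of the 9 regulators and of related lists, with the number of genes in brackets, a thick bar for the median of the list and a dotted line for the median of all genes. Medians are 1.12 for the 9 regulators, 1.46 for replication genes, 2.37 for dividing-cell genes and -0.24 for Polycomb targets.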

How the data were processed

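Total RNA of 4 livers was hybridised as biotin-labelled cRNA to Affymetrix GeneChip expression arrays for mouse. The deposited intensity values were made by the authors with RMA, whose version is not given in the sources used here, and are linear; the log2 was taken with no added constant. Probe sets above the 20th percentile of their array on at least 1 array were kept, 38405 of 45037. In the platform's annotation 34945 probe sets carried 1 gene name, 932 carried several and 9160 had none, and 34741 of the first kind were found by Entrez identifier in a table of current symbols, with 0 symbols changed. No detection calls were used, and the number of arrays limits the precision. Median log2 values were 3.09 to 3.14 per array, and the SD of the difference between replicates was 0.455 in Control and 0.350 in Cnot3KO.

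Groups were compared with lmFit and eBayes of limma 3.58.1 in R 4.3.3, two-sided, on 5.40 total degrees of freedom, 3.40 of them from the prior, with 95% confidence intervals from the same fit, which was tested on simulated data. Promoter windows and figures were handled with Python 3.11.15, pandas 2.3.3 and matplotlib 3.10.9. The genes and lists were chosen with earlier results of these data known. Named were the set itself, Cnot3 and the 3 genes nearest in pattern to Uhrf1, Ezh2 and Ezh1. Of each list up to 4 called genes were named, by size of difference among those without overlap. Where none was called, the gene with the largest difference was named. Of marker and replication lists only counts and sums are given, besides Alb. Alb, Mbd1, Dazl, Syce1 and Hoxa10 were named after their values were seen. No set test was run. The fit was repeated unfiltered, with only probe sets whose mean passed the 50th percentile, after a second quantile normalization, after centring on the median of each array or on genes of ribosomal proteins, with a block for replicate number, with a prior following intensity or a robust one, and without _x_at and _s_at probe sets. The t-test of the methods, averages over the probe sets of a gene, an adjusted p under 0.1 and leaving out each array completed the alternatives. No genome positions of probe sets are given, since the annotation names no build.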

Additional observations from a re-analysis of the deposited data

How the results depend on the processing

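The counts of 4 genes and 8 probe sets called higher held within 1.5 times under most settings, and 0 were called lower under any. An adjusted p under 0.1 gave 7 genes. With the methods' t-test 0 genes and 0 probe sets were called higher after Benjamini-Hochberg adjustment, and no gene at all was called; before adjustment it gave 2 genes and 6 probe sets higher and 0 lower. Leaving out 1 array gave 0 to 4 genes and 1 to 8 probe sets, with the lowest counts without Control replicate 1; all genes called higher then fell from 2038 to between 746 and 1220, and the lone array of a group was assumed to vary like the other group. The replicate block gave 3 genes and 7 probe sets. The labels do not say whether livers of the same number were paired. The deviations of same-numbered arrays correlated at 0.23, with only 2 pairs, which cannot settle it. Small differences changed sign, and the cause was not tested. Suz12 was at 0.024 without _x_at and _s_at probe sets, and from -0.39 to 0.25 with 1 array left out. Of its other probe sets, that with a difference of -0.19 then ranged from -0.54 to 0.16, that of -0.12 from -0.35 to 0.12 and that of 0.024 from -0.23 to 0.27, the last also at -0.16 with quantile normalization and -0.027 with median centring. Dnmt3b ranged from -0.48 to 1.48 and its other probe set from -0.26 to 1.47. Of Dnmt3a, the probe set at -0.029 ranged from -0.23 to 0.17, and was at 0.016 with ribosomal centring, and that at 0.23 ranged from -0.074 to 0.53. The Hells probe set at 0.18 ranged from -0.27 to 0.63.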
